A study of Mus musculus with 24 samples.

Results

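The Ifi200 family (also called the p200 or PYHIN family) is a cluster of interferon-inducible mouse genes on chromosome 1. The 8 members followed here are Ifi203, Ifi204, Ifi205, Ifi207, Ifi209, Ifi211, Ifi213 and Mndal, out of 35519 genes in the table. They were picked from the annotated family with an earlier reading of these libraries known, in which phagocytosis libraries were set against control libraries, so their values on that contrast are a description, and the calls of the fit over all genes are printed there only beside their background. All 8 had reads, and 7 passed the expression filter that left 9803 genes for testing; Mndal, with 12 reads over the phagocytosis libraries and 3 over the controls, did not.

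Each library held RNA of 1000 microglia, the brain's resident macrophages, sorted from C57BL/6 mouse brain as CD11b+ Fcrls+ cells without Ly6C, and was prepared by Smart-Seq2, which covers whole transcripts and has no molecular identifiers. The mice were knockouts for neuroligin-4, an adhesion protein of synapses (NL4-/-), or wild type (WT), and this knockout was the only genetic change the labels name. The 24 libraries form 8 groups: female NL4-/- phagocytosis, female WT phagocytosis, male NL4-/- phagocytosis and male WT phagocytosis with 4 libraries each, and the same sex and genotype combinations as control with 2 libraries each. A further phagocytosis replicate per group, which the design text counts, is not analysed here. The sources used here do not name the cargo of the phagocytosis groups, the place of uptake or the age of the mice. The transcript set held 0 transcripts of the knocked-out gene Nlgn4l, so the knockout itself was not read out. Libraries held 421107 to 1013797 expected reads in all and 10.9 to 375.4 from the 8 members, so the sparser members rest on a few reads. In 3 controls (female NL4-/- control 1, male NL4-/- control 1 and male WT control 2) satellite-like transcripts took over 20% of reads.

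PYHIN proteins typically pair a pyrin domain, through which they bind each other and signalling partners, with 1 or more HIN domains that bind DNA. Some of them detect DNA in the cytosol or nucleus: Aim2 builds an inflammasome, and mouse Ifi204, the counterpart of human IFI16, signals through STING to type I interferon. Most family genes are themselves switched on by interferon, and in the brain microglia are among the cells that answer interferon. Recent duplication has left the paralogues with long near-identical stretches, so a short read can match several of them.

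The family lay between positions 173350879 and 174031810 of chromosome 1 (GRCm38, GENCODE vM21), from Aim2 to Ifi205. Within it, Ifi207 (173723427 to 173741747) and Ifi204 (173747293 to 173766943) were neighbours on the minus strand. The annotated span of Mndal (173849126 to 173942491) contained that of Ifi211 (173896345 to 173913046) and overlapped that of Ifi203 (173920407 to 173942672), all on the minus strand. The Mndal transcripts counted in these libraries reached only to 173880881, so they overlapped neither gene in position. Ifi205 was at 174011998 to 174031810 and Ifi213 at 173566283 to 173599274 on the minus strand, and Ifi209 at 173630917 to 173647928 on the plus strand.

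The promoters of most members carried the core letters of the element through which type I interferon acts on a promoter. RefSeq promoter windows (GRCm38.p6, 250 bases before to 50 after a gene start) were found for 7 of the 8 members, with no entry for Ifi204, and were searched on both strands for the core of the interferon-stimulated response element, GAAANNGAAA (TTTCNNTTTC on the other strand). The core was present in the windows of Ifi203, Ifi205, Ifi207, Ifi211, Ifi213 and Mndal, and these letters were not in the Ifi209 window. Across all promoters, 3.99% of 27025 genes held it. The gamma-activated site TTCNNNGAA, present for 9.55% of all genes, was in no member's window. The 60 bases around the core are shown for 5 members to let the core and the letters around it be compared between paralogues. They read 5′ to 3′ on the gene's strand (minus in each case), with the core in capitals:
Ifi203 (chr1:173942493-173942552): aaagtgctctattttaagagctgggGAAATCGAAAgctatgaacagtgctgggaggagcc
Ifi205 (chr1:174031855-174031914): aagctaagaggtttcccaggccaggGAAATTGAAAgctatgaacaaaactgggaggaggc
Ifi207 (chr1:173741816-173741875): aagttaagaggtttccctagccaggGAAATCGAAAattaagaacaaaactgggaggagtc
Ifi211 (chr1:173913049-173913108): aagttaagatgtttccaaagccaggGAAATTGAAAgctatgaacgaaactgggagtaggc
Ifi213 (chr1:173599311-173599370): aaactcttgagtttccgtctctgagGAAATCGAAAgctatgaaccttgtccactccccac

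Distances were counted to the RefSeq start of each window, which can differ from the end of the GENCODE span given above. The core lay 27 bases before this start for Ifi211, 31 for Ifi207, 63 for Ifi213 and 124 for Ifi205. For Ifi203 it lay 25 bases before the start of the second RefSeq window, at a place inside that gene's GENCODE span. The Mndal stretch, at a separate place (chr1:173880189-173880248), was letter for letter that of Ifi203. Ifi205 held a further match on the other strand, after its RefSeq start, and Mndal one on the other strand, 44 bases before the start of its second RefSeq window. A match is a description of the letters and not of binding.

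Phagocytosis libraries held more family RNA than control libraries. Summed over the 8 members, expression averaged 203 ± 118 CPM (SD, n = 16) in phagocytosis libraries and 36.5 ± 14.2 CPM (SD, n = 8) in control libraries, a ratio of 5.57. CPM are read counts scaled to 1 common library size after TMM normalisation. The sum had a lowest value of 62.1, a median of 183 and a highest value of 504 CPM in phagocytosis libraries, against 24.3, 33.1 and 69.1 CPM in controls. Of the 16 phagocytosis libraries, 14 were above the highest control, and the ranges overlapped through female NL4-/- phagocytosis 3 (62.1), male NL4-/- phagocytosis 4 (68.7) and male WT control 1 (69.1). In such bulk libraries, more cells with a transcript and more of it per cell cannot be told apart.

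**Figure D1:**
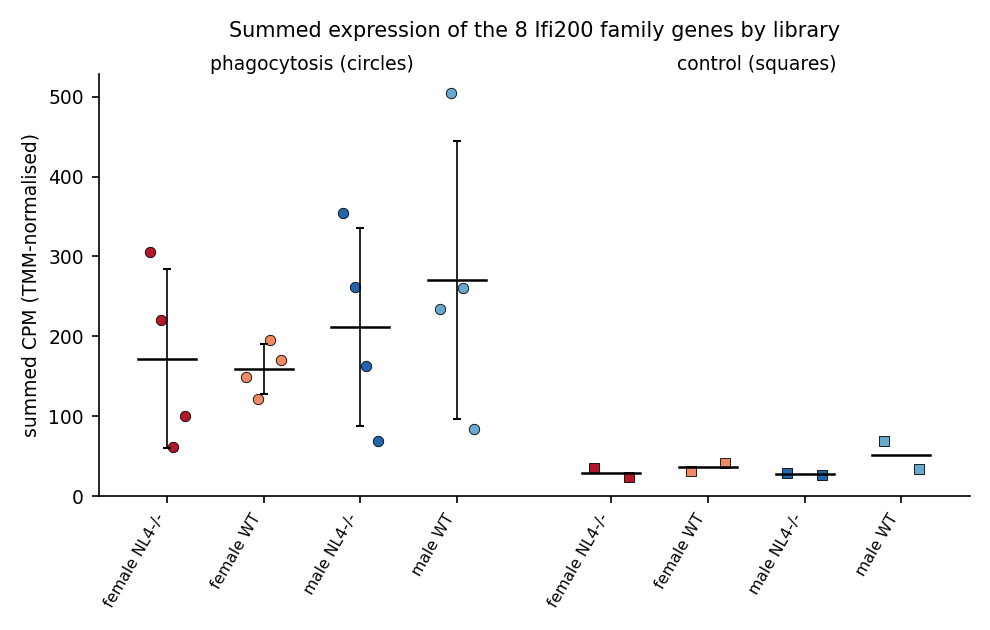
Summed expression of the 8 family genes (vertical axis, TMM-normalised CPM) in each library, with phagocytosis groups as circles and control groups as squares. Horizontal lines are group means and, for the groups of 4, bars are ± 1 SD; phagocytosis libraries run from 62.1 to 504 and controls from 24.3 to 69.1.

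The sum was higher in phagocytosis libraries in every sex and genotype, without overlap in each. In female NL4-/- mice the 4 phagocytosis libraries stood at 306, 220, 62.1 and 100 CPM, against 35.1 and 24.3 CPM in the controls (ratio of means 5.80). In female WT mice they stood at 149, 122, 195 and 170 CPM, against 32.2 and 41.7 CPM (4.30). In male NL4-/- mice they stood at 355, 262, 163 and 68.7 CPM, against 29.6 and 26.2 CPM (7.60). In male WT mice they stood at 234, 504, 261 and 83.6 CPM, against 69.1 and 34.0 CPM (5.25). Female WT phagocytosis libraries were the closest together, with an SD of 31.3 CPM, and the other phagocytosis groups had SDs of 112 to 174 CPM.

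The members did not contribute alike. In reads, Ifi207 took 29.1% of the family's 2243 phagocytosis reads (exact 95% binomial interval 27.2 to 31) and 20.2% of its 173 control reads (14.5 to 27.0), while Ifi204 took 25.4% (23.6 to 27.3) and 38.2% (30.9 to 45.8). Ifi211 made up 17.5% of phagocytosis reads (16 to 19.2) and 3.47% of control reads (1.28 to 7.40), and Ifi205 made up 9.90% (8.69 to 11.2) and 2.31% (0.633 to 5.81). Ifi204 was thus the largest share in controls and Ifi207 in phagocytosis libraries. The remaining members, Ifi209, Ifi203, Ifi213 and Mndal, each held 0.535 to 6.51% of phagocytosis reads and 1.73 to 13.3% of control reads. These intervals cover counting error only. Per library the shares spread widely (mean ± SD, phagocytosis then control libraries). They were 30.8 ± 7.36 and 19.2 ± 9.11% for Ifi207, and 27.3 ± 7.12 and 35.4 ± 13.8% for Ifi204. For Ifi211 they were 16.7 ± 4.95 and 4.13 ± 5.8%, and for Ifi205 8.07 ± 5.94 and 1.63 ± 3.03%.

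**Figure D2:**
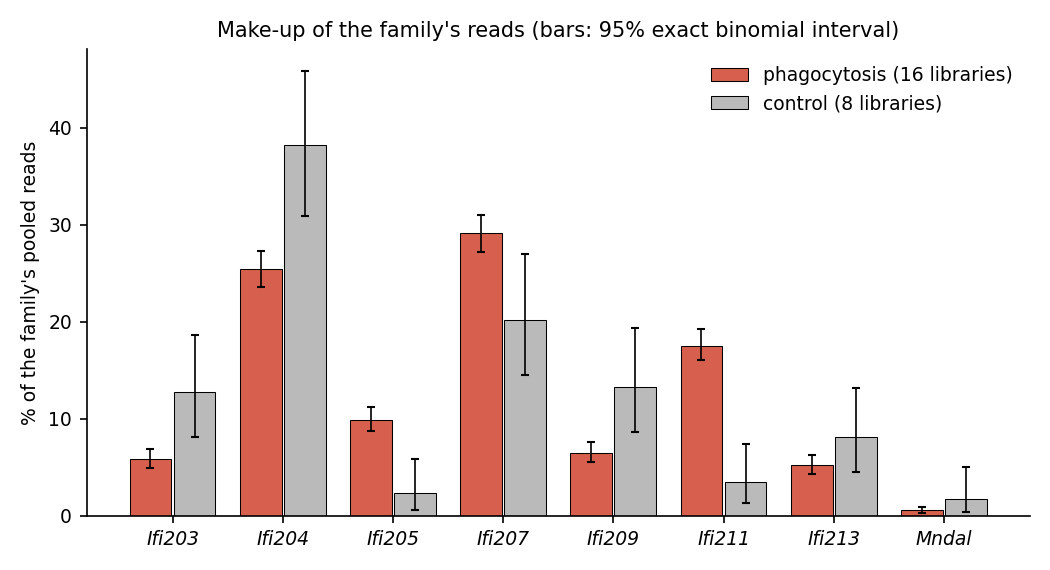
Share of the family's pooled reads taken by each gene (vertical axis, %), in 16 phagocytosis libraries (2243 reads, left bar of each pair) and 8 control libraries (173 reads, right bar), with exact 95% binomial intervals for counting error. In pooled reads Ifi211, Ifi205 and, by a narrow margin between the intervals, Ifi207 had larger shares in phagocytosis libraries, and Ifi204, Ifi209 and Ifi203 smaller ones. The intervals do not cover the spread between libraries, so they do not show that these shares differ between the states.

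Levels of different genes are compared here only per length, in TPM. In phagocytosis libraries Ifi204 was highest at 45.3 ± 23.1 TPM, then Ifi211 at 30.3 ± 19.1, Ifi205 at 23.1 ± 29.6 and Ifi207 at 20.8 ± 10.4 (SD, n = 16). Ifi203 (8.81 ± 6.56), Ifi209 (8.07 ± 6.74), Ifi213 (6.74 ± 8.26) and Mndal (3.74 ± 6.89) were lower. Neighbours in this order differed by less than the larger of their SDs, except that the step between Ifi207 and Ifi203 was wider than either SD. In control libraries Ifi204 was also highest at 11.5 ± 12.4 TPM (SD, n = 8), the other 7 were between 0.359 (Ifi205) and 2.57 TPM (Ifi209), and Ifi211 stood at 0.887 ± 1.08.

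Ifi207, Ifi204, Ifi211 and Ifi205 carried most of the difference between the states. Ifi207, the neighbour of Ifi204 on the chromosome, had a lowest value of 17.8, a median of 58.8 and a highest value of 107 CPM in phagocytosis libraries, against 0, 6.26 and 19.2 CPM in controls. Its means were 59.2 ± 28.5 and 7.28 ± 5.52 CPM, a log2 fold change of 3.13 ± 0.451 (SE) in edgeR. The 2 states overlapped in 1 phagocytosis library, female NL4-/- phagocytosis 3, which lay below male WT control 1.

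Ifi204, the STING-linked DNA sensor, had a lowest value of 16, a median of 54.4 and a highest value of 113 CPM in phagocytosis libraries, against 4.94, 11.9 and 31.7 CPM in controls. The means were 52.0 ± 25.3 and 13.6 ± 9.07 CPM, and the log2 fold change was 2.10 ± 0.379 (SE). It had reads in all 24 libraries, and 12 of 16 phagocytosis libraries were above the highest control.

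Ifi211 was the single member whose states did not overlap. It had a lowest value of 8.19, a median of 30.2 and a highest value of 79.2 CPM in phagocytosis libraries, against 0, 0.842 and 5.81 CPM in controls. Over the whole states this is 393 reads against 6, a ratio of pooled reads per library total of 28.2 (95% counting interval 12.8 to 77.3). Across all genes tested, 0.796% had every phagocytosis library above every control. Both female WT controls and both male NL4-/- controls had 0 reads, so phagocytosis libraries were at least 14.4-fold higher in female WT and at least 9.50-fold higher in male NL4-/- mice, with 3 reads over the control group as the floor.

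Ifi205, whose mouse protein has been tied to expression of the inflammasome adaptor Asc in macrophages, had 222 reads in phagocytosis libraries against 4 in controls. It had a lowest value of 0, a median of 13.4 and a highest value of 97.1 CPM in phagocytosis libraries, against 0, 0 and 2.46 CPM in controls. The ratio of pooled reads was 23.9 (95% counting interval 9.20 to 88.5). Reads were present in 14 of 16 phagocytosis libraries and in 2 of 8 controls. Male WT phagocytosis 2 alone held 72.3 of the reads.

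Ifi213, Ifi209 and Ifi203 were sparser, and Mndal was near the limit of detection. Ifi213 averaged 10.8 ± 13.4 CPM in phagocytosis libraries and 2.52 ± 1.81 CPM in controls, with 8 of 16 above the highest control. Ifi209 averaged 12.8 ± 12.4 and 5.29 ± 3.39 CPM, with 10 of 16 above it, and a log2 fold change of 1.31 ± 0.565 (SE). Ifi203 averaged 11.9 ± 6.28 and 4.94 ± 3.91 CPM, with 7 of 16 above it, and a log2 fold change of 1.35 ± 0.567 (SE). Mndal, described as a growth-restraining family protein, averaged 1.10 ± 1.71 and 0.752 ± 1.07 CPM, and its ratio of pooled reads was 1.72 with a counting interval of 0.465 to 9.51. The ranges of these 4 members overlapped widely between the states.

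**Figure D3:**
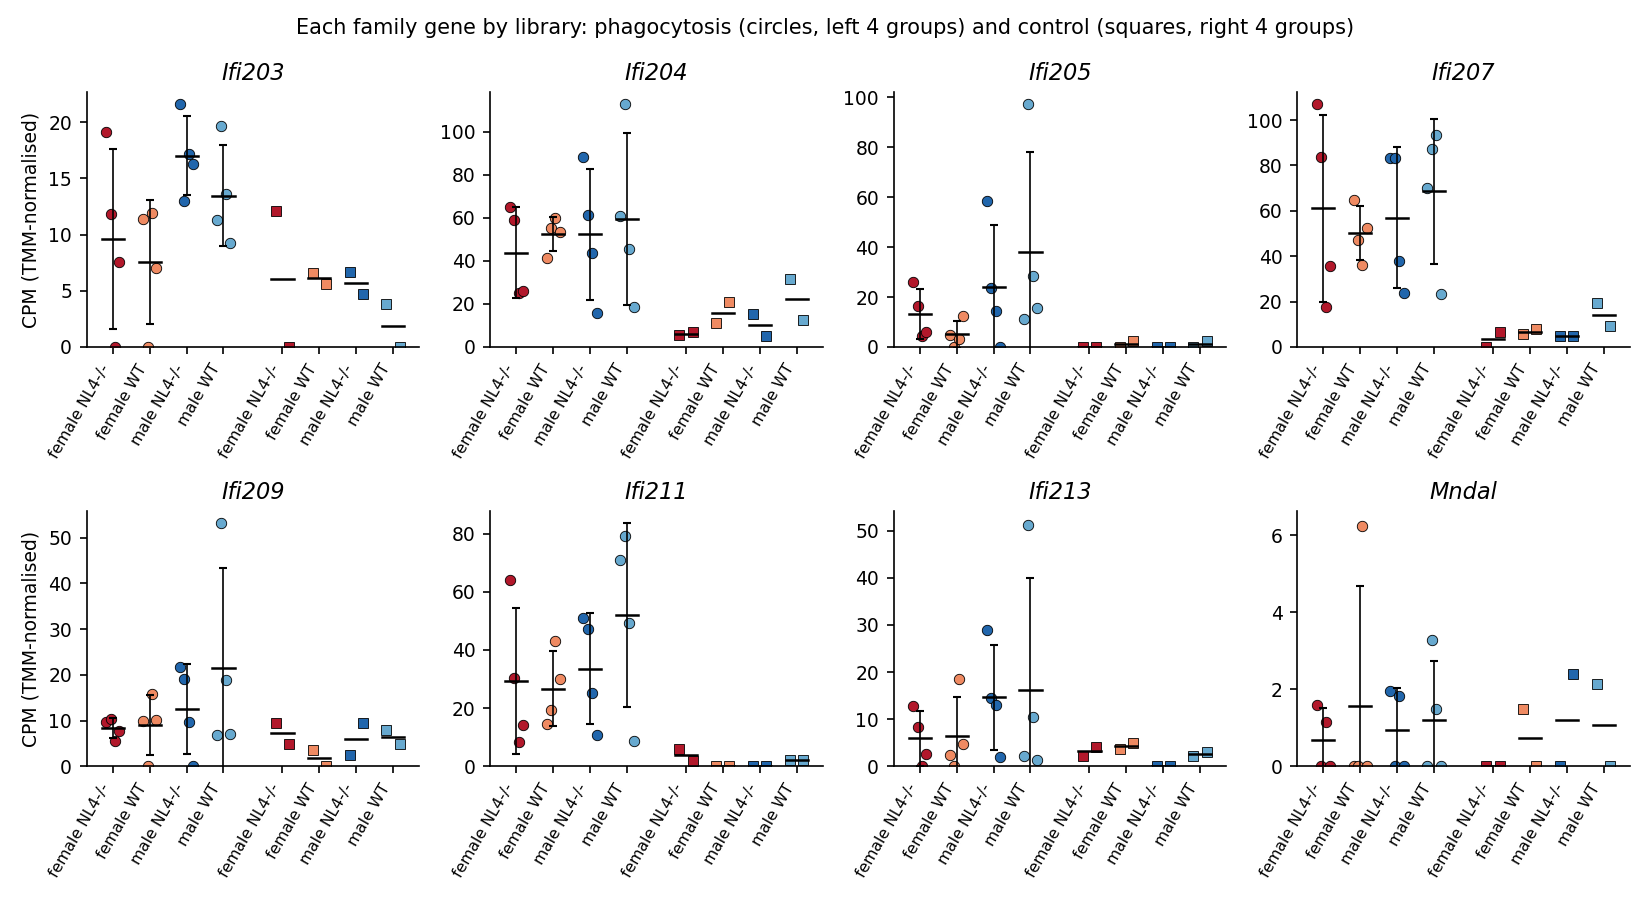
Expression of each of the 8 members (vertical axes, TMM-normalised CPM, scales differ between panels) in every library; circles are phagocytosis and squares control libraries, lines are group means and bars ± 1 SD for the groups of 4. Ifi211 alone has every phagocytosis library (lowest 8.19) above every control (highest 5.81), and male WT phagocytosis 2 is the highest library for Ifi204, Ifi205, Ifi209, Ifi211 and Ifi213.

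In the edgeR quasi-likelihood test averaged over both sexes and genotypes, 13.6% of all genes were called (adjusted p under 0.05), 8.41% as higher in phagocytosis libraries. Of the 7 members tested, 4 were (Ifi204, Ifi205, Ifi207 and Ifi211, all higher), and 3 of them remained past the threshold without the 3 control libraries with over 20% of reads in satellite-like transcripts, Ifi205 being the exception. Without those libraries its log2 fold change was 5.73, against 4.85 with all of them, values that rest on the prior count because 6 of 8 controls were at 0. Within single sex and genotype groups, with 2 controls each, 0 of the 7 were called in female NL4-/-, female WT, male NL4-/- or male WT mice, against 0.459%, 0.581%, 0.602% and 0.326% of all genes. At an unadjusted p under 0.05 the counts were 4, 3, 5 and 5 of 7, beside 9.56%, 12.1%, 10.8% and 8.2% of all genes. DESeq2, which gave an adjusted p to 2, 4, 3 and 4 members, called 2, 2, 2 and 1 (adjusted p under 0.05), beside 2.38%, 2.27%, 1.99% and 0.808% of the genes it gave one. Because the members were chosen on this contrast, nothing is read from any of these counts.

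How far these genes can be told apart depends on their sequence. A 31-base word was counted as unique to a gene when it stood in no other gene's transcripts on either strand. By this measure 85.2% of the words of Ifi207, 78.2% of Ifi203, 77.9% of Ifi205, 74.0% of Ifi213, 71.3% of Mndal, 65.7% of Ifi204 and 52.8% of Ifi209 were unique, but only 21.1% of those of Ifi211. Ifi211 shared 49.5% of its words with Ifi205, 38.6% with Ifi204 and 25.2% with Mndal. Ifi209 shared 46.8% with Ifi214, which is no member. The authors' counting divided such reads among transcripts, so the split between Ifi211, Ifi205 and Ifi204 is uncertain. Their sum does not depend on how reads are divided between them, but reads shared with other genes can still move into or out of it. Ifi211 shared 6.53% of its words with Ifi207, and Ifi204 shared 8.35% of its words with Mndal. Aim2 shared 0 words within the family, and 95.2% of its words were unique.

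**Figure D4:**
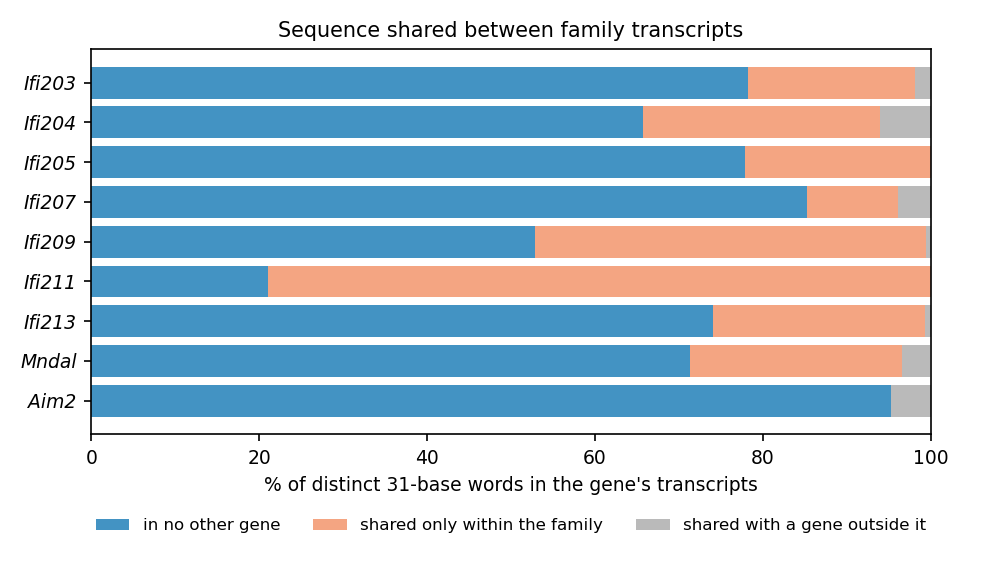
Percentage of the distinct 31-base words in each gene's transcripts (horizontal axis) that stand in no other gene, are shared only within the family, or are shared with a gene outside it. Ifi211 has the smallest unique share at 21.1% and Aim2 the largest at 95.2%.

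The knockout was then compared with WT within the phagocytosis state, the comparison that the series title frames by sex. No member differed between genotypes beyond the spread of the libraries. In females, NL4-/- over WT log2 fold changes ran from -0.28 (Ifi204) to 1.17 (Ifi205), with 4 members positive and 3 negative and a median of 0.08, beside 0.01 over all genes. With edgeR none of the 7 was called and none had an unadjusted p under 0.05, beside 0% and 5.2% of all genes. DESeq2 also called none, but a member to which it gave no adjusted p counts here as not called. Its share over all genes is not given for the genotype comparisons. In males the values ran from -0.73 (Ifi209) to 0.33 (Ifi203), with 1 positive, 6 negative and a median of -0.25, beside -0.01 over all genes. Again none of the 7 was called by either tool, with the same limit for DESeq2. None had an unadjusted p under 0.05 by edgeR, and over all genes the edgeR shares were 0% and 4.74%.

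The intervals show what these data cannot separate. For Ifi204, the member with the highest level per length, the female difference was -0.28 (95% interval -1.28 to 0.71, adjusted p = 0.989, edgeR) and the male difference -0.16 (-1.13 to 0.80, adjusted p = 1). In females it stood at 65.1, 59.0, 25.1 and 26.2 CPM in NL4-/- phagocytosis libraries, against 41.4, 55.4, 59.9 and 53.4 CPM in WT phagocytosis libraries. In males it stood at 88.3, 61.2, 43.5 and 16 CPM in NL4-/- and at 60.8, 113, 45.3 and 18.5 CPM in WT phagocytosis libraries. In each sex the genotypes overlapped.

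Ifi207 gave 0.22 in females (95% interval -0.83 to 1.27, adjusted p = 0.995, edgeR) and -0.25 in males (-1.28 to 0.77, adjusted p = 1). Female NL4-/- phagocytosis libraries had 107, 83.7, 17.8 and 35.6 CPM, against 64.9, 47.0, 36.3 and 52.6 CPM in female WT. Male NL4-/- phagocytosis libraries had 83.3, 83.3, 37.9 and 23.7 CPM, against 70.2, 87.4, 93.3 and 23.2 CPM in male WT. The female NL4-/- libraries lay on both sides of the WT range.

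Ifi211 gave 0.08 in females (95% interval -1.31 to 1.46, adjusted p = 0.999, edgeR) and -0.65 in males (-1.95 to 0.64, adjusted p = 1). Female NL4-/- phagocytosis libraries had 64.2, 30.4, 8.19 and 14.3 CPM, against 14.4, 19.2, 43.2 and 30.1 CPM in female WT. Male NL4-/- phagocytosis libraries had 51.1, 47.2, 25.2 and 10.7 CPM, against 70.9, 79.2, 49.4 and 8.72 CPM in male WT. The genotypes overlapped in each sex.

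Ifi205 had the widest genotype difference in females, 1.17 (95% interval -1.11 to 3.50, adjusted p = 0.965, edgeR), and in males it gave -0.66 (-2.45 to 1.12, adjusted p = 1). Female NL4-/- phagocytosis libraries had 26.2, 16.3, 4.34 and 6.18 CPM, against 4.65, 0, 3.11 and 12.4 CPM in female WT. Male NL4-/- phagocytosis libraries had 58.3, 23.5, 14.5 and 0 CPM, against 11.4, 97.1, 28.6 and 15.6 CPM in male WT. The test of the difference between these differences, female minus male, gave 1.83 ± 1.38 (SE, 95% interval -1.05 to 4.77, adjusted p = 0.993). Over the 7 members this interaction ran from -0.14 (Ifi203) to 1.83, and 0 of 7 were called or had an unadjusted p under 0.05, against 0% and 4.76% of all genes. In females the direction for Ifi203, Ifi207, Ifi209, Ifi211 and Ifi213 turned when 1 library was left out; Ifi211, for example, gave -0.70 without female NL4-/- phagocytosis 1.

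The family sum followed the same lines. It averaged 172 ± 112 CPM in female NL4-/- and 159 ± 31.3 CPM in female WT phagocytosis libraries (log2 ratio of means 0.11), and 212 ± 124 CPM in male NL4-/- and 271 ± 174 CPM in male WT phagocytosis libraries (log2 ratio -0.35; SD, n = 4 each). These differences are smaller than the SDs of the groups. In controls it was 35.1 and 24.3 CPM in female NL4-/- libraries and 32.2 and 41.7 CPM in female WT libraries. It was 29.6 and 26.2 CPM in male NL4-/- control libraries and 69.1 and 34.0 CPM in male WT control libraries. These did not overlap, but with 2 libraries each nothing is read from that. With edgeR 0 of 7 members were called between control genotypes in either sex, and 0 had an unadjusted p under 0.05, against 0% of all genes called and 2.14% (females) and 3.35% (males) with an unadjusted p under 0.05. Likewise, 0 of 7 were called for a state difference that depended on genotype in females or in males, and 0 had an unadjusted p under 0.05, beside 0% of all genes called in either sex and 2.57% (females) and 2.51% (males) with an unadjusted p under 0.05.

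Female and male phagocytosis libraries were compared within each genotype. In WT mice all 7 members were lower in females, from -0.18 (Ifi204) to -2.75 (Ifi205) on the log2 scale, with a median of -0.96; of all genes 51.9% were negative and the median was -0.02. None of the 7 was called by edgeR (0.0204% of all genes were) and 1 had an unadjusted p under 0.05 (7.55% of all genes did). This was Ifi205, at -2.75 ± 1.00 (SE, 95% interval -4.90 to -0.68, edgeR adjusted p = 0.566), with the female WT libraries at 0 to 12.4 CPM and the male WT libraries at 11.4 to 97.1 CPM. In NL4-/- mice 6 of 7 were lower in females, from 0.05 (Ifi207) to -1.43 (Ifi213), none was called (0.0102% of all genes were) and none had an unadjusted p under 0.05 (2.31% of all genes did). The family sum averaged 166 ± 76.3 CPM in female and 241 ± 143 CPM in male phagocytosis libraries (SD, n = 8 each), and the ranges overlapped.

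**Figure D5:**
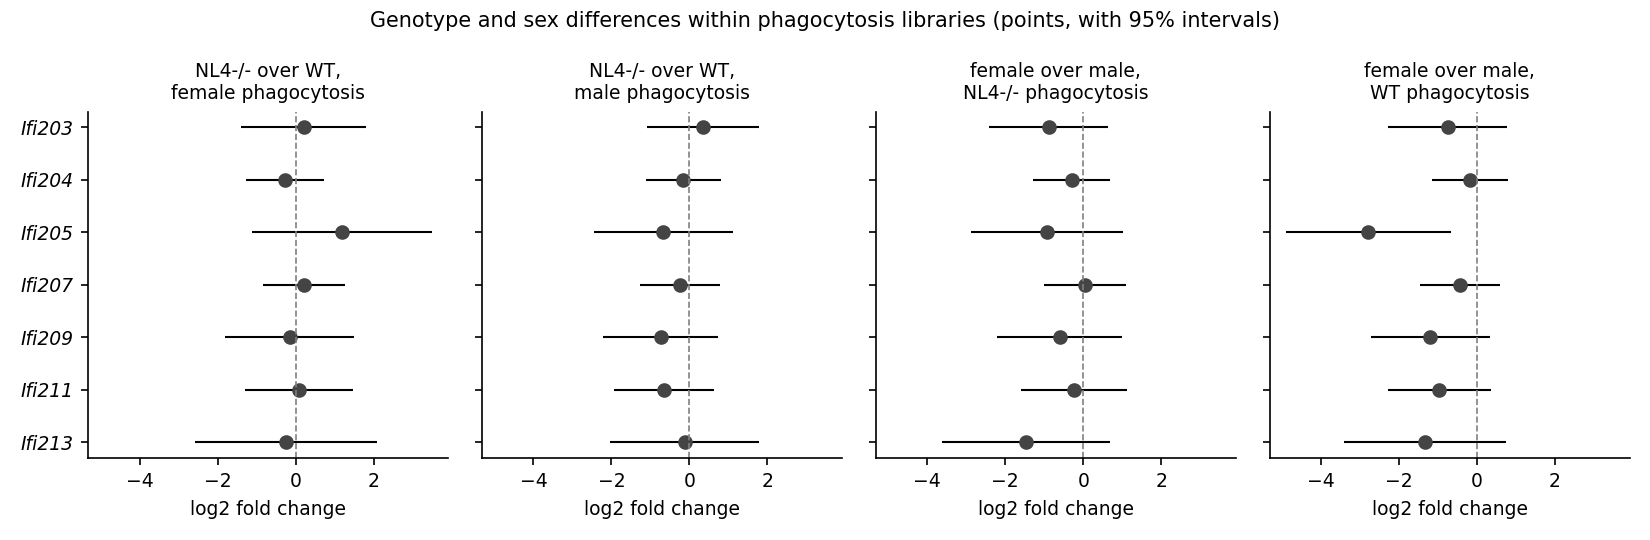
Log2 fold changes of the 7 members past the expression filter (points) with 95% intervals from edgeR (lines) within phagocytosis libraries, for NL4-/- over WT in females and in males and for female over male in NL4-/- and in WT mice. Intervals include 0 except that of Ifi205 in WT (-4.90 to -0.68), whose adjusted p was 0.566.

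Family genes outside the 8 did not all move with them. Aim2, the inflammasome-forming sensor, averaged 30.5 ± 10.3 CPM in phagocytosis libraries and 42.0 ± 9.49 CPM in controls. Its log2 fold change of -0.45 ± 0.194 (SE) did not pass (adjusted p = 0.124, edgeR), and 0 of 16 phagocytosis libraries exceeded its highest control of 58.4 CPM. Ifi206 rose, averaging 25.2 ± 29.3 CPM in phagocytosis libraries and 2.00 ± 2.41 CPM in controls (3.61 ± 1.07, adjusted p = 0.0251, edgeR). It ranged from 1.16 to 84.2 CPM in phagocytosis libraries, and 13 of 16 were above its highest control. Neither gene was called between genotypes: Aim2 gave 0.42 (adjusted p = 0.964) in females and -0.40 (adjusted p = 1) in males, and Ifi206 gave 1.74 (adjusted p = 0.964) and -0.34 (adjusted p = 1), by edgeR in phagocytosis libraries.

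Genes around the family in nucleic acid sensing were read from lists, in the same state comparison and beside 8.41% of all genes called higher and 5.18% called lower. Like the members, the lists were chosen with earlier results of these data known. Their counts and adjusted p on this contrast are therefore a description, here and for the lists that follow. The genes named are those with the smallest adjusted p in each list. Of 26 cytosolic DNA and RNA sensors tested, 8 rose and 0 fell, with a median log2 fold change of 0.22. Among them Zbp1, a sensor of Z-form nucleic acid, rose to 46.0 ± 33.4 CPM in phagocytosis libraries, against 6.67 ± 5.36 CPM in controls (adjusted p = 0.000668, edgeR). Oas1a, which makes the activator of RNase L, averaged 92.8 ± 53.1 and 21.1 ± 13.8 CPM (adjusted p = 0.00435, edgeR), and its relative Oasl1 103 ± 109 and 5.26 ± 7.90 CPM (adjusted p = 0.00482, edgeR).

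Downstream of the sensors the picture was mixed. Of 17 signalling genes 2 rose and 1 fell, with a median of 0.05. The kinase gene Ikbke rose, averaging 42.5 ± 17.3 CPM in phagocytosis libraries and 6.25 ± 4.48 CPM in controls (adjusted p = 3.77e-06, edgeR), as did the transcription factor gene Irf7 at 189 ± 155 and 21.2 ± 15.0 CPM (adjusted p = 0.00188, edgeR). Tmem173, which encodes STING, the partner of Ifi204, fell to 405 ± 113 CPM in phagocytosis libraries, against 589 ± 45.5 CPM in controls (log2 fold change -0.54 ± 0.153, adjusted p = 0.018, edgeR). The sensor gene Ifi204 and the STING gene thus stood on opposite sides of 0.

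Of 14 inflammasome genes 0 rose and 3 fell, with a median of -0.11. These were Il1a, a cytokine, at -0.83 ± 0.188 (adjusted p = 0.0035), and the receptor genes Nlrp1b at -0.81 ± 0.197 (adjusted p = 0.00561) and Naip5 at -0.51 ± 0.148 (SE, adjusted p = 0.019, all by edgeR). Of 17 endosomal receptor and transport genes 3 rose and 2 fell; the 3 with the smallest adjusted p all rose, Slc15a3 (0.88 ± 0.151), a peptide transporter, Pld3 (0.52 ± 0.121), a lysosomal exonuclease, and Dnase2a (0.38 ± 0.114), the lysosomal DNase. Of 11 nuclease and related genes that limit sensing 3 rose and 0 fell, namely Dnase2a again, Slfn2 (1.26 ± 0.209) and the RNA-editing enzyme gene Adar (0.56 ± 0.173).

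Interferon receptors and their signal chain gave 2 genes higher and 2 lower of 15 tested. Usp18, a brake on the interferon receptor, rose (2.72 ± 0.541, adjusted p = 0.00287), while the receptor gene Ifngr1 (-0.72 ± 0.164, adjusted p = 0.0044) and the kinase gene Jak1 (-0.44 ± 0.124, adjusted p = 0.0155) fell, all by edgeR. Of 51 interferon-stimulated genes tested 37 rose and 0 fell, with a median log2 fold change of 1.65 beside -0.01 over all genes. This list too was chosen with earlier results known, so the count is a description. Bst2, which tethers budding virus, averaged 458 ± 187 CPM in phagocytosis libraries and 145 ± 43.4 CPM in controls. In female and in male phagocytosis libraries, 0 genes of these 7 lists were called between genotypes, where 0% of all genes were, and at an unadjusted p under 0.05 there were 0 or 1 in each list in females and 0 to 2 in males.

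The genes whose pattern over the 16 phagocytosis libraries was most like the family sum were Cmpk2, Mx1, Rsad2, Oasl1, Isg20 and Rnf213. Likeness was the root mean square difference between standardised log2(CPM + 1) values, where 0 means the same pattern. It was 0.405 for Cmpk2 and 0.499 for Rnf213, beside a median of 1.40 and a 1st percentile of 0.806 over 9795 genes. By the same measure against the sum of the other members, Ifi211 (0.435), Ifi204 (0.542), Ifi213 (0.597) and Ifi207 (0.600) were closest to the rest of the family. Ifi203 (0.996) was the farthest of the members compared, which did not include Mndal. Aim2 stood at 1.27 from the sum. The points share libraries and their depth, and paralogues share reads, so these values are a description.

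Markers of microglia and of other cells were summed in each library beside the family. Summed over 10 microglial markers, libraries scaled to their total held 29700 ± 7640 CPM in the phagocytosis state and 39800 ± 5730 CPM in controls, with 0 of 10 genes higher in phagocytosis libraries. No microglial marker was at 0 in all libraries. Monocyte markers summed to 116 CPM (38.5 to 276) in phagocytosis libraries and 59.4 CPM (31.1 to 89.7) in controls, with 13 of 14 genes higher, and Ly6c2 and Ccr2 averaged 3.36 and 5.05 CPM against 1.21 and 2.30 CPM. Border-associated macrophage markers summed to 1780 CPM (1420 to 2450) in phagocytosis libraries and 1090 CPM (869 to 1720) in controls, with 14 of 14 higher, mostly through Stab1 at 1460 and 993 CPM; Mrc1 averaged 9.49 and 3.39 CPM. No monocyte or border-associated marker was at 0 in all libraries. Neuron markers summed to 42.1 CPM (12.6 to 107) in phagocytosis libraries and 7.69 CPM (4.40 to 13.2) in controls, with 9 of 10 genes higher. Most of the difference between these sums came through Uchl1, at 32.3 and 2.01 CPM. Oligodendrocyte markers summed to 221 CPM (167 to 370) and 152 CPM (123 to 185), with 7 of 10 higher. Astrocyte, endothelial and dendritic cell markers summed to 106, 44.8 and 63.1 CPM in phagocytosis libraries, against 103, 30.0 and 54.6 CPM in controls. Of their genes, 9 of 10, 4 of 10 and 5 of 10 were higher in phagocytosis libraries. Among astrocyte markers Slc1a3 averaged 60.7 and 89.2 CPM, while Gfap averaged 14.0 and 1.72 CPM. Lymphocyte and neutrophil markers summed to 285 and 494 CPM, against 405 and 572 CPM, with 7 of 16 and 7 of 12 genes higher. Among neutrophil markers Csf3r averaged 405 and 532 CPM, while Lcn2 averaged 37.4 and 7.06 CPM. Of these lists, 1 endothelial marker, Cldn5, was at 0 in all libraries.

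Single libraries show how these values lay together. Male WT phagocytosis 2, with the highest family sum of 504 CPM, had the highest monocyte sum of 276 CPM and a microglial sum of 23900 CPM. Female NL4-/- phagocytosis 3, with the lowest family sum of 62.1 CPM in its state, had a monocyte sum of 61.9 CPM and a microglial sum of 39400 CPM. Male NL4-/- phagocytosis 1, with a family sum of 355 CPM, had 98.2 and 25000 CPM, and male WT phagocytosis 4, with 83.6 CPM, had 38.5 and 44100 CPM. Male NL4-/- phagocytosis 4 differed from these, with a low family sum of 68.7 CPM beside a monocyte sum of 133 CPM and a microglial sum of 36400 CPM. The part of monocytes, border-associated macrophages, neurons, oligodendrocytes, astrocytes, the other cell types or lower microglial marker levels in the family's values was not tested.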

How the data were processed

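Per the file headers, the deposited tables list for each transcript an expected read count (the estimate NumReads), a TPM and its full and effective lengths. The sources used here name no quantifier. The authors' expected counts are not normalised, and reads shared by transcripts are divided among them. The authors' TPM are scaled per length, and were used to order the members' levels and, with the deposited effective lengths, for length-scaled counts. Of 116945 transcripts 116023 matched GENCODE vM21; the other 922 (0.274 to 0.379% of reads) were left out. Expected counts were summed per gene and rounded.

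Genes were tested with edgeR 4.0.16 (R 4.3.3; quasi-likelihood, robust, TMM, expression filter with a minimum count of 10), all 24 libraries in 1 fit with 8 group means, in 14 comparisons, with two-sided p adjusted by Benjamini-Hochberg over 9803 genes. Fold changes carry a prior count of 0.125, and where a group had 0 reads no SE is given. DESeq2 1.42.0 was an alternative. The fits were tested on simulated data.

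The members and gene lists were chosen with earlier results of these data known. Named besides the 8 members are the other annotated family genes and up to 3 genes per list with the smallest adjusted p. Also named are the 6 protein-coding genes most like the family sum, predicted genes and pseudogenes left out. The labels call samples biological replicates without saying whether each was a separate animal, so p-values measure the spread between these libraries. Intervals and floors cover counting error only, since reads without molecular identifiers are not independent molecules. Correlations between the deviations of same-numbered libraries ran from -0.114 to 0.147, so numbers were not treated as pairs. Whether libraries shared handling by number was not tested.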

Additional observations from a re-analysis of the deposited data

Results flagged for a closer look

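Mndal stood at 6.24 CPM (4 reads) in female WT phagocytosis 3 and at 0 in the other 3 female WT phagocytosis libraries, so that this library lay apart from its group. It was the only such case among 44 groups of 4 libraries examined over the 8 members, Aim2, Ifi206 and the family sum. The rule always sets apart a library that alone has reads in its group, so nothing is read from this case. Ifi203-ps, which was not among the genes examined, likewise had reads in 1 library of 4 in each phagocytosis group: 1.70 CPM in female NL4-/- phagocytosis 2, 3.10 CPM in female WT phagocytosis 3, 1.98 CPM in male NL4-/- phagocytosis 4 and 3.04 CPM in male WT phagocytosis 1.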

How the results depend on the processing

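For genotype, sex and interaction comparisons, 0 members were called under every alternative run. In the main fit 0% of all genes were called in the genotype and interaction comparisons, and 0.0102% (NL4-/-) and 0.0204% (WT) in the sex ones. The shares under the alternatives are not given, so nothing about the members is read from this count. The number of genes called between the states was 1332; it was 884 with length-scaled counts, 782 with phagocytosis numbers 3 and 4 only, 410 when the 3 controls above 20% satellite-like reads were left out, and 781 (without female WT control 2) to 1508 with 1 library left out. Of the members, 4 were called between the states (13.6% of all genes), 7 of 8 without a filter on low counts (5.15%), 5 each by DESeq2 (14.4%), with the replicate block (16.8%) and with phagocytosis numbers 1 and 2 only (18.8%), 4 each with length-scaled counts (8.47%) and numbers 3 and 4 only (8.33%), 3 without the 3 satellite-rich controls (3.84%), and 4 to 6 with 1 library left out. Within female NL4-/-, female WT, male NL4-/- and male WT mice, in that order, edgeR called 0 members each. DESeq2 called 2, 2, 2 and 1 of the 2, 4, 3 and 4 members it gave an adjusted p (2.38%, 2.27%, 1.99% and 0.808% of the genes it gave one). No filter gave 3, 3, 3 and 2 (0.667%, 1.02%, 0.607% and 0.375% of the genes tested). Numbers 1 and 2 only gave 3, 2, 3 and 3 (3.34%, 1.26%, 1.66% and 0.996%). In female WT, length-scaled counts gave 1 (0.326%) and numbers 3 and 4 only gave 1 (1.62%). With 1 library left out these counts were 0 to 1, 0 to 2, 0 and 0 to 1. The share over all genes is not given for those fits, so nothing is read from their counts. The same numbers occur in each group. Of 68 pairs of same-numbered libraries, 4 had deviations correlated over 0.1 (-0.114 to 0.147 over all pairs), so numbers were not treated as pairs. Whether libraries shared handling by number was not tested. The replicate block gave 2, 3, 3 and 2 (1.06%, 2.99%, 1.7% and 0.622%). It turned Ifi211 to -0.22 in the female genotype comparison and Ifi213 to 0.15 in the male one, and changed no genotype, sex or interaction call. Other turned directions, none of them called, were as follows. In the female genotype comparison, numbers 3 and 4 only gave Ifi203 -1.39, Ifi205 -0.59, Ifi207 -0.76 and Ifi211 -1.73; numbers 1 and 2 only gave Ifi204 0.41, Ifi209 0.68 and Ifi213 2.85; length-scaled counts gave Ifi209 0.026. In the male one, numbers 1 and 2 only gave Ifi207 0.10. In the interaction, numbers 1 and 2 only gave Ifi203 1.07, Ifi204 0.61 and Ifi213 3.10, and numbers 3 and 4 only gave Ifi211 -1.05. With 1 library left out, female genotype values ran from -0.44 to 0.66 (Ifi203), -0.25 to 0.55 (Ifi207), -0.48 to 0.21 (Ifi209), -0.70 to 0.42 (Ifi211) and -1.08 to 1.11 (Ifi213). Male ones ran from -0.52 to 0.34 (Ifi204), -1.52 to 0.38 (Ifi205), -1.09 to 0.23 (Ifi209) and -0.64 to 1.68 (Ifi213), where leaving out male WT phagocytosis 2 gave the highest value of each. Interaction values ran from -0.76 to 0.32 (Ifi203), -0.64 to 0.22 (Ifi204), -0.39 to 0.93 (Ifi209), -0.042 to 1.07 (Ifi211) and -1.93 to 1.23 (Ifi213). The cause of these shifts was not tested. The family sum's log2 ratio between the states, 2.48, was 2.53 without TMM, 1.67 with the other family genes, 2.66 as summed TPM (chosen after seeing the data) and 2.33 to 2.67 with 1 library left out. At these depths Mndal and the sparser members are measured from a few reads.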

Other observations

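Several family genes outside the 8 members had too few reads to test. Ifi208 had 67 reads in phagocytosis libraries and 14 in controls (5.94 ± 7.26 and 2.86 ± 1.86 CPM), with 5 of 16 phagocytosis libraries above the highest control. Ifi214 had 56 and 7 reads (4.96 ± 3.25 and 1.46 ± 1.39 CPM), with 11 of 16 above it, and it shares 20.4% of its 31-base words with Ifi209. Ifi202b was listed at 0 in all 24 libraries, although 98.8% of its words were unique. The Ifi206, Ifi208 and Ifi214 promoter windows also held GAAANNGAAA, and those of Aim2 and Ifi202b did not.

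The reads were divided among transcript classes by the authors' estimate. All reads of Ifi207 and Ifi211 were on protein-coding transcripts. For Ifi204 a retained-intron transcript took 22.3% of reads in phagocytosis libraries and 46.4% in controls, and for Ifi205 it took 13.4% of reads in phagocytosis libraries and 27.8% in controls, where the gene had 4 reads in all. These splits were not tested.

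By the number in the library's label, the family sum of phagocytosis libraries averaged 263 CPM for numbers 1 and 2 and 81.1 CPM for numbers 3 and 4 in female NL4-/- mice, 135 and 183 CPM in female WT, 308 and 116 CPM in male NL4-/-, and 369 and 172 CPM in male WT. The labels do not say that a number marks a day or a batch.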
